A study of Mus musculus with 23 samples.

Results

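The genes described here are the protein-coding Hox cluster genes, taken as every gene whose symbol is Hoxa, Hoxb, Hoxc or Hoxd followed only by a number. The rule used names alone and no measured value. It found 38 genes among the 36793 in the deposited tables, 11 in the Hoxa, 10 in the Hoxb, 9 in the Hoxc and 8 in the Hoxd cluster. Of the 39 such genes in the annotation, Hoxd4 was not analysed here. Hox proteins are homeodomain transcription factors that give cells their address along the head-to-tail axis of the embryo. Genes at the low-numbered end of each cluster are used from anterior levels, genes at the high-numbered end in posterior and distal parts, and adult cells often keep the combination of the place they came from. Blood progenitors use their own Hox set, largely Hoxa and Hoxb genes, which falls as myeloid cells mature.

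The series profiled mRNA of transplantable mouse head and neck tumour models, 23 libraries in 8 groups. MEER is an epithelial tumour model of C57/Bl6 mice, used in an HPV+ and an HPV- form, and SCCVII (also spelled SSCVII in the labels) is an HPV- squamous carcinoma of C3H/HeJ mice. Each model was sequenced as in vitro cultured tumour cells (3 aliquots of the line each) and as macrophages sorted as CD45+CD11b+Gr1-F4/80hi cells from subcutaneous tumours (3 pools each, from 3 to 4 mice per pool, the HPV- pools numbered 1, 2 and 4). The last 2 groups are labelled macrophage progenitor colonies, grown from such sorted macrophages for 9 days in haematopoietic stem cell medium (3 preparations for HPV- MEER, 2 for SCCVII). No treatment or engineered allele is named for any group, and the labels used here name no ages. Multiple mice were pooled in each macrophage library, so spread between animals is not seen within a pool. The HPV comparison sets one line against another, and the SCCVII comparisons also cross mouse strain, so HPV status, strain and line identity cannot be told apart. Aliquots of a line need not be separate cultures, so p-values among lines measure the spread between aliquots, which may be technical. The HPV- colonies come from a separate deposited table, so the table and this group cannot be told apart either.

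On the GRCm38 assembly the members lie in clusters on chromosome 6 (Hoxa) and at chr11:96194316-96368256 (Hoxb), chr15:102921103-103036852 (Hoxc) and chr2:74668310-74765142 (Hoxd). Promoters of 21 of the 38 members were matched by symbol in RefSeq (GRCm38.p6), as windows of 300 bases running from 250 before to 50 after the start site. The sequences below belong to the member above 1 TPM in every macrophage library (Hoxb4), one high in the HPV- MEER line and its colonies (Hoxb8) and one at 0 there but present in the SCCVII line and its colonies (Hoxd9). All are on the plus strand and end at the base before the annotated gene start: Hoxb4 at chr11:96318017-96318266, Hoxb8 at chr11:96281655-96281904 and Hoxd9 at chr2:74697513-74697726. Capitals mark matches, on either strand, to the TATA box (TATAAA), the CCAAT box (CCAAT), an E-box (CACGTG), a homeodomain core (TAATTA) or the site that Pbx and Hox proteins bind together (TGATNNAT).
Hoxb4 promoter: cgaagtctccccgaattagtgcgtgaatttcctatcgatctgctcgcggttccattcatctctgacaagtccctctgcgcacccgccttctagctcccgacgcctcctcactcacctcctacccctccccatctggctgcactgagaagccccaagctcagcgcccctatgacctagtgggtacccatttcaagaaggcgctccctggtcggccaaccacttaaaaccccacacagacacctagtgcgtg
Hoxb8 promoter: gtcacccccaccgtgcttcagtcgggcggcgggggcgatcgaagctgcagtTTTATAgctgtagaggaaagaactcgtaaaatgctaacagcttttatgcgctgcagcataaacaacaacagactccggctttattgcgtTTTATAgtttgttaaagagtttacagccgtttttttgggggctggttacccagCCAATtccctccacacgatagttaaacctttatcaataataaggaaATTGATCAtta
Hoxd9 promoter: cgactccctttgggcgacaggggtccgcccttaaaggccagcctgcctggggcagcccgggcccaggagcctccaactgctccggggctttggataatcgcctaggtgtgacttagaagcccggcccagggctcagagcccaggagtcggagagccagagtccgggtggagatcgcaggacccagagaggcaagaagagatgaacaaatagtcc
Hoxb8 held 2 matches to TATAAA, 1 to CCAAT and 1 to TGATNNAT, and none overlapped another. The windows of Hoxb4 and Hoxd9 held no match to these letters. Over the full windows, CCAAT occurred in 13 of the 21 members against 37.4% of all 32851 promoter windows, TGATNNAT in 3 against 8.85%, CACGTG in 3 against 7.15%, TAATTA in 1 against 5.29% and TATAAA in 2 against 13.6%. The members' windows had a median GC content of 58% (42.3% to 81%), beside 52.7% over all windows. Their median ratio of observed to expected CpG was 0.596 (0.257 to 1.02), beside 0.384.

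Levels are the authors' TPM values, which are per transcript length and so can be set side by side between genes. The libraries held 26848759 to 47609481 expected counts. Of the 38 members, 29 reached a mean of 1 CPM (expected counts scaled to the library total) in at least 1 group, and these are the ones described by value. All 8 macrophage markers reached 1 TPM in every sorted macrophage library, and of 8 epithelial markers 4 to 6 did so in the MEER aliquots but 2 in the SCCVII aliquots. HPV- macrophage library 4 and HPV- colonies 1 and 3 stood apart from their groups in Hox level or cell markers, as given with the results, and the counts of called members that use them are also given without them. The other 9 (Hoxa13, Hoxb1, Hoxc11, Hoxc12, Hoxc13, Hoxd1, Hoxd11, Hoxd12 and Hoxd13) stayed at or below 52 counts in every library, and Hoxc12 and Hoxd1 had none in any. Apart from Hoxb13, the members numbered 11 and above other than Hoxa11 were thus low or at 0 throughout.

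**Figure D1:**
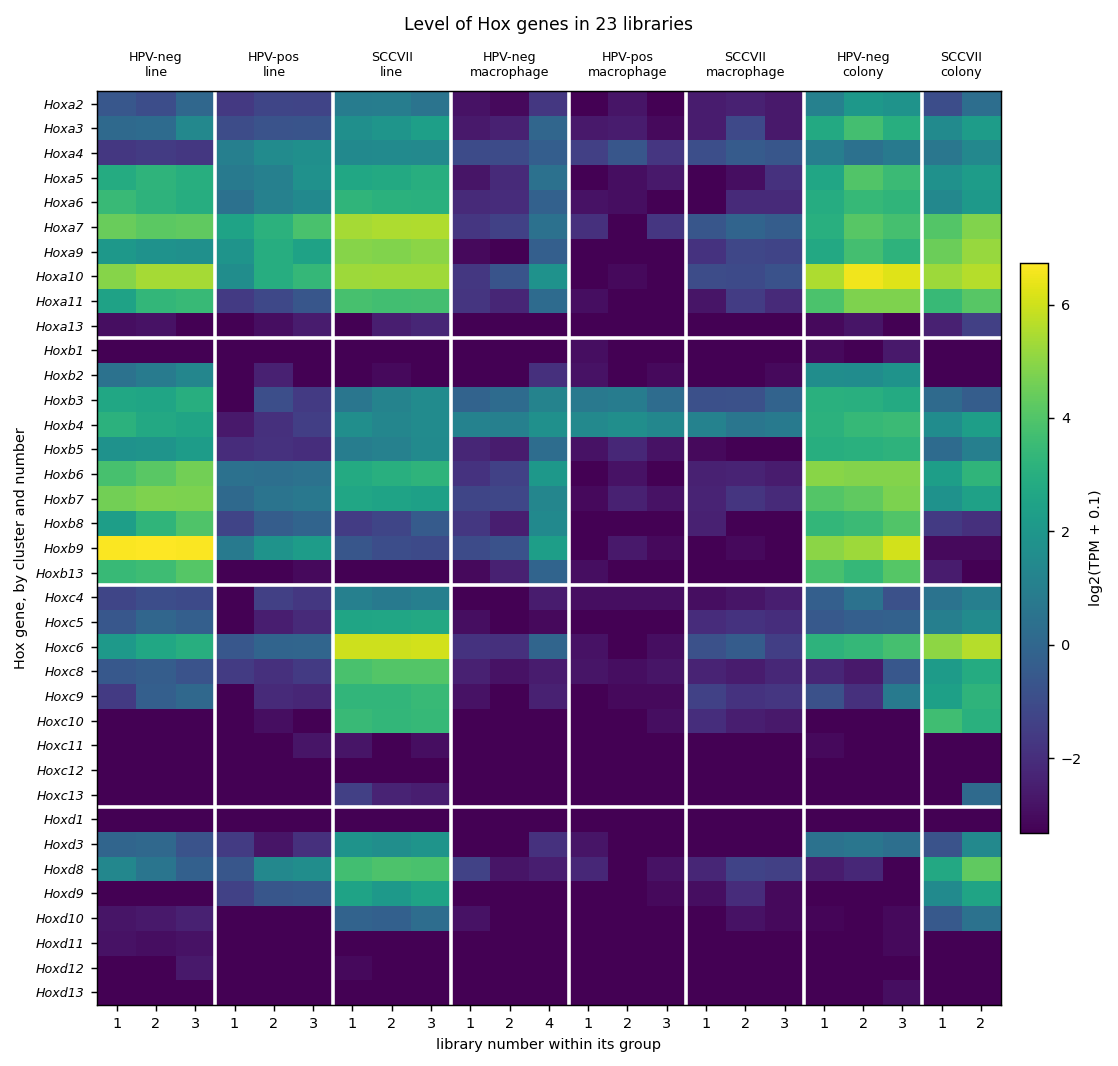
Level of the Hox genes reported by name (rows, by cluster and number) in the 23 libraries (columns, by group), as log2(TPM + 0.1), dark being 0. The HPV- line and its colonies share a bright Hoxb block, the SCCVII line and its colonies a bright Hoxc and Hoxd block, and the macrophages are mostly dark except for Hoxb3, Hoxb4 and Hoxa4 and, in HPV- library 4, further Hoxa and Hoxb genes.

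Cultured tumour cells and colonies carried more Hox mRNA than sorted macrophages, except that HPV+ line aliquot 1 lay below HPV- macrophage library 4. Summed over the members, the HPV- line held 295 TPM (± 23.2 SD, n = 3), the SCCVII line 307 (± 10.5, n = 3) and the HPV+ line 44.1 (± 16.1, n = 3). The HPV+ aliquots 1, 2 and 3 gave 26.6, 47.1 and 58.5 TPM. The HPV- colonies summed to 246, 352 and 370 TPM and the SCCVII colonies to 182 and 283. Macrophages of HPV+ tumours summed to 4.96, 5.34 and 6.42 TPM and those of SCCVII tumours to 6.38, 7.09 and 7.35. Macrophages of HPV- tumours gave 6.99 and 6.70 TPM in libraries 1 and 2 but 34.1 in library 4, which stood apart. At least 1 mean TPM was reached by 19 members in the HPV- line, 11 in the HPV+ line and 24 in the SCCVII line. In HPV- and SCCVII colonies 21 and 22 did so, against 6, 2 and 1 in macrophages of HPV-, HPV+ and SCCVII tumours. In HPV- macrophages, Hoxa10, Hoxb6, Hoxb7 and Hoxb9 reached it through library 4 alone, each at or below 0.52 TPM in libraries 1 and 2. Hoxb3 stood at 0.82 and 1.03 TPM in libraries 1 and 2, and Hoxb4 at 2.13 and 1.98.

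**Figure D2:**
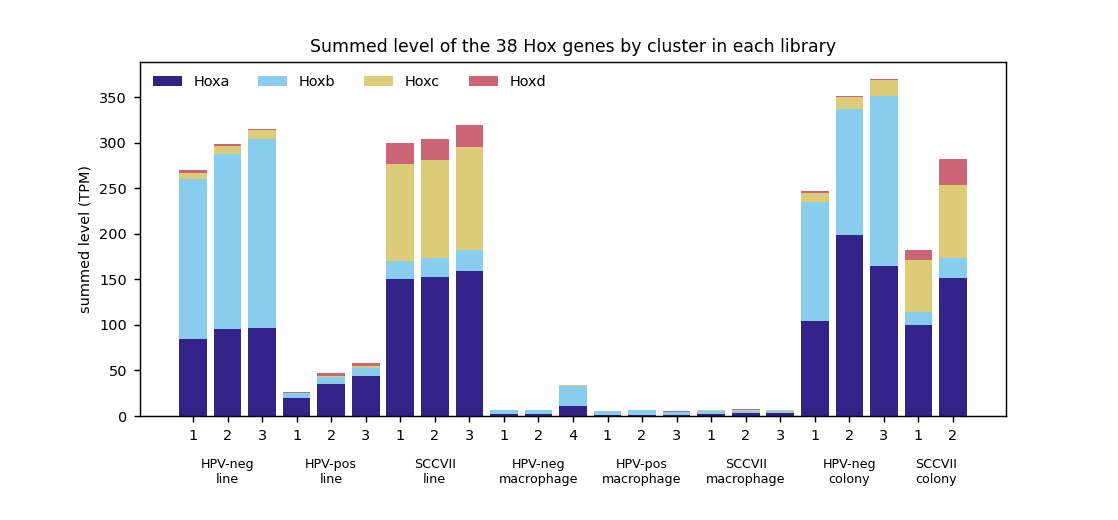
Summed TPM of the members of each Hox cluster (stacked colours) in each library (bars, numbered within their group). Hoxb genes make up 65.0% of the HPV- line's Hox level and 7.02% of the SCCVII line's, where Hoxc genes make up 35.3%.

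The clusters were used in different proportions. In the HPV- line 65.0% of the summed level came from Hoxb, 31.4% from Hoxa, 2.83% from Hoxc and 0.844% from Hoxd. In the SCCVII line 50.05% came from Hoxa, 35.3% from Hoxc, 7.66% from Hoxd and 7.02% from Hoxb. In the HPV+ line 75.4% came from Hoxa. In colonies the make-up differed between models too: Hoxb gave 47.7% in HPV- colonies and 7.69% in SCCVII colonies, and Hoxc 4.18% and 29.97%.

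Among the cultured lines, SCCVII against HPV- MEER showed opposite use of Hoxb and of Hoxc with Hoxd. All 9 Hoxb members tested were lower in SCCVII, and all 6 Hoxc and all 4 Hoxd members tested were higher. Together with 5 Hoxa members that were higher, 24 of 29 members tested were called at an adjusted p under 0.05, 15 higher and 9 lower, where 58.8% of all genes tested were called (27.2% higher, 31.6% lower). A large share of all genes thus differed between these lines, and a member that passed the low-count filter through 1 group alone had to differ, so such counts are a description. The median log2 difference of the members tested was 1.17, against -0.06 for all genes tested.

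Hoxb genes marked the HPV- line, at both ends of the cluster. Of the anterior ones, Hoxb2 stood at 1.79 mean TPM in HPV-, 0.03 in HPV+ and 0.007 in SCCVII. In the same order, Hoxb3 stood at 6.70, 0.22 and 2.16 and Hoxb4 at 7.06, 0.16 and 2.73. Hoxb9, which patterns trunk segments and mammary gland, stood at 102, 107 and 103 TPM in the HPV- line, at 1.69, 3.45 and 4.59 in the HPV+ line and at 0.55, 0.42 and 0.38 in the SCCVII line. The 3 lines did not overlap, and its HPV- mean of 103.9 TPM was the highest of any Hox gene in any group. Its log2 difference from HPV- was -5.15 ± 0.34 (SE, adjusted p = 1.9e-06) in HPV+ and -7.79 ± 0.41 (adjusted p = 1.6e-07) in SCCVII. Hoxb13, a gene of the tail bud and prostate, stood at 10.8, 12.2 and 16.9 TPM in the HPV- line and at 0 in each SCCVII aliquot, at least 501-fold lower when set against 3 counts over the group. The HPV+ line held 1 Hoxb13 count in all, a ratio of 1660 with a counting interval of 298 to 65584. Hoxb8, a gene of trunk and of blood progenitors, was at 4.83, 9.45 and 15.4 TPM in the HPV- line, at or below 0.85 in every aliquot of the other lines, and varied more between HPV- aliquots than its neighbours. Hoxb7 stood at 24.3, 27.6 and 26.8 TPM in HPV-, 0.98, 1.37 and 1.54 in HPV+ and 6.05, 5.55 and 5.21 in SCCVII, so the level in SCCVII lay between the others.

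Hoxc and Hoxd genes marked the SCCVII line, anterior members among them. Hoxc4 stood at 1.86 mean TPM in SCCVII, 0.38 in HPV- and 0.16 in HPV+. In the same order, Hoxc5 stood at 6.20, 0.73 and 0.07 and Hoxd3 at 3.36, 0.78 and 0.15. Hoxc10, a gene of the lumbar region and hindlimb, stood at 11.2, 10.0 and 10.6 TPM in SCCVII and at 0 counts in all HPV- aliquots, at least 397-fold higher. Hoxd9, used in limb and lumbar spine, stood at 5.66, 4.10 and 5.60 TPM in SCCVII, 0.28, 0.54 and 0.59 in HPV+ and 0 in HPV-, at least 218-fold higher in SCCVII than in HPV-. A count of 0 over the 3 HPV- aliquots allows a level of up to 0.0284 CPM. Hoxc6 was the highest of the SCCVII line at 62.3, 62.8 and 65.7 TPM, against 4.28, 6.21 and 7.73 in HPV- (log2 3.30 ± 0.25, adjusted p = 1.7e-06) and 0.57, 0.85 and 0.88 in HPV+. Hoxc8 (14.5, 16.6 and 16.4 TPM in SCCVII against 0.58, 0.68 and 0.50 in HPV-) and Hoxc9 (9.79, 9.81 and 11.0 against 0.23, 0.73 and 0.97) followed, both thoracic genes. Hoxd8 was at 13.0, 15.3 and 14.2 TPM in SCCVII and at 0.55 to 2.92 in the MEER aliquots, which overlapped between HPV- and HPV+. Exons of Hoxc5 and Hoxc10 overlap on the same strand in the annotation, so their split of shared reads is uncertain.

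The Hoxa cluster was in use in both of these lines. Hoxa10, used in limb, uterus and blood, stood at 29.6, 41.4 and 41.7 TPM in the HPV- line and 38.4, 39.5 and 39.6 in SCCVII, ranges that overlap. Hoxa5, Hoxa6 and Hoxa11 were likewise not called between these lines. Hoxa9, a regulator of blood stem cells and of limb, was higher in SCCVII (30.01, 28.5 and 32.1 TPM) than in HPV- (3.98, 3.37 and 3.17; log2 3.08 ± 0.34, adjusted p = 2.6e-05). Hoxa7 was at 41.9, 45.4 and 46.3 TPM in SCCVII and 21.4, 18.2 and 19.4 in HPV-. Hoxa4, an anterior gene, stood at 2.61, 2.73 and 2.58 TPM in SCCVII and 1.95, 2.79 and 3.16 in HPV+, but at 0.21, 0.24 and 0.21 in HPV- (log2 3.56 ± 0.33 for SCCVII and 3.39 ± 0.33 for HPV+). Hoxa4 and Hoxd9 (at least 17.3-fold) were the members called higher in HPV+ than in HPV-.

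The HPV+ line was low for most members. Against the HPV- line, 22 of 29 members tested were lower and 2 higher, where 47% of all genes tested were called in either direction (23.2% higher, 23.9% lower). The median log2 difference was -2.59, against -0.01 for all genes tested. Beside Hoxb9 and Hoxb13, strong losses were seen in Hoxb2 (at or below 0.09 TPM in HPV+, 1.27, 1.74 and 2.35 in HPV-), Hoxb4 (0.06, 0.16 and 0.26 against 8.8, 6.58 and 5.81; log2 -5.53 ± 0.37) and Hoxb3 (0, 0.43 and 0.23 against 6.28, 5.93 and 7.89; log2 -4.96 ± 0.62). These are hindbrain and neck genes at the other end of the cluster from Hoxb13. Its leading members were Hoxa7 (5.54, 8.74 and 14.2 TPM), Hoxa10 (2.92, 7.67 and 10.2) and Hoxa9 (3.64, 7.55 and 5.53), and aliquot 1 was the lowest for each. SCCVII against HPV+ gave 23 members higher and 1, Hoxb9, lower of 29 tested, where 64% of all genes were called (30% higher, 34.1% lower). The line comparisons share aliquots, so they are not independent of each other.

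Macrophages sorted from the tumours had little Hox mRNA except for Hoxb3 and Hoxb4 and, in HPV- library 4, further members. Hoxb4, which promotes self-renewal of blood stem cells, was detected in every macrophage library, with 115 to 270 counts. It stood at 2.13, 1.98 and 3.25 TPM in macrophages of HPV-, 2.54, 3.01 and 2.41 of HPV+ and 2.08, 1.44 and 1.61 of SCCVII tumours. Hoxb3 stood at 0.82, 1.03 and 2.16, at 1.57, 1.77 and 1.09 and at 0.45, 0.47 and 0.82 TPM. Both were higher in macrophages of HPV+ tumours than in the HPV+ line, with log2 differences, line minus macrophage, of -4.82 ± 0.34 for Hoxb4 (adjusted p = 1.4e-09) and -3.53 ± 0.61 for Hoxb3 (adjusted p = 6.1e-05), with no overlap. Against the SCCVII line, at 3.04, 2.35 and 2.79 TPM, the Hoxb4 level of its macrophages was not called different (log2 0.39 ± 0.27, adjusted p = 0.19). Hoxa4 (0.20 to 0.71 TPM) was also above 0.1 TPM in all 9 macrophage libraries. Hoxa4 was lower in the HPV- line than in its macrophages (log2 -1.53 ± 0.40, adjusted p = 0.0027).

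**Figure D3:**
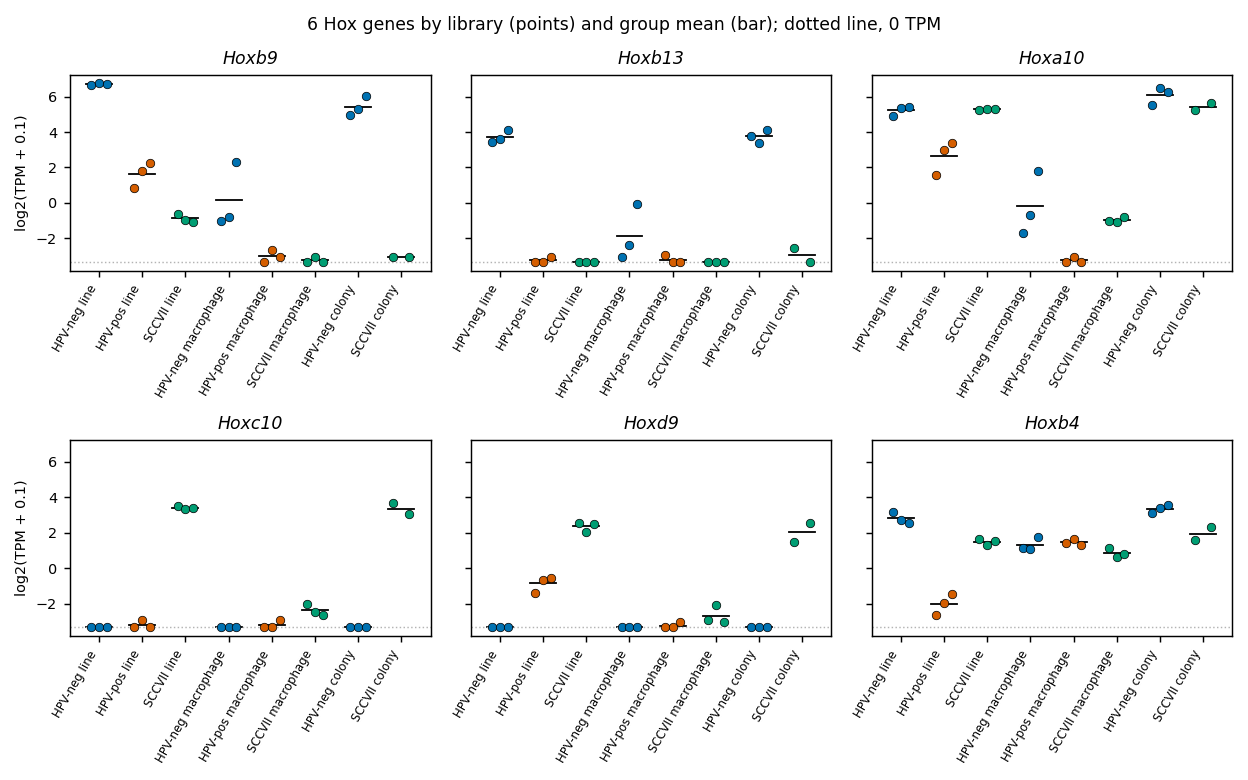
Level of 6 Hox genes, log2(TPM + 0.1), in each library (points, coloured by tumour model) of the 8 groups, with the mean of each group (bar). Hoxb9 and Hoxb13 are high in the HPV- line and colonies, Hoxc10 and Hoxd9 in the SCCVII line and colonies, Hoxa10 in both, and Hoxb4 lies between 1.44 and 3.25 TPM in all macrophage libraries.

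Most other members were far above the macrophage level in the line of the same model. In HPV- MEER, 25 of 29 members tested were higher and 1 lower in the line, with 76.1% of all genes tested called (37.4% higher, 38.7% lower). In HPV+ MEER, 20 were higher and 2 lower (78.8% of all genes called, 39.1% higher and 39.6% lower), and in SCCVII 25 were higher and none lower (73% called, 35.5% higher and 37.4% lower). Without HPV- macrophage library 4, the same 26 HPV- members were called in the same direction, and for 22 of them the difference was larger. Leaving out any 1 library gave 25 to 26 calls in HPV-, 18 to 21 in HPV+ and 23 to 24 in SCCVII. Each such HPV+ fit lost Hoxb8, and each such SCCVII fit lost Hoxb3, Hoxb9 or both. The members' median log2 difference, with all libraries, was 3.47, 3.22 and 5.47, against -0.01, 0.00 and 0.00 for all genes tested. Hoxc6 gave 0.18, 0.16 and 0.88 TPM in HPV- macrophages, 0.04, 0 and 0.03 in HPV+ and 0.46, 0.66 and 0.26 in SCCVII, and Hoxc10 gave 0 counts in HPV- macrophages and 10 in those of SCCVII tumours. Bulk RNA cannot tell fewer cells of a type from less RNA per cell.

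Expressed as a share of the line of the same model, over members at 2 TPM or more in that line, the median was 1.33% and 1.46% in HPV- macrophage libraries 1 and 2 and 14.98% in library 4. It was 0% to 2.11% in HPV+ and 1.07% to 1.81% in SCCVII macrophages. Hoxb4 had the highest share in each HPV- library (30.2%, 28.0% and 46.0%) and each SCCVII library (76.3%, 52.8% and 59.0%). Library 4 of the HPV- macrophages held Hoxb9 at 4.83 TPM (0.39 and 0.48 in the others), Hoxb6 at 4.01 (0.18 and 0.28), Hoxa10 at 3.40 (0.21 and 0.52) and Hoxb13 at 0.85 (0.02 and 0.09). Its profile over the 38 members correlated with that of the HPV- line at a Pearson r of 0.928, on log2(TPM + 0.1), against 0.633 and 0.703 for libraries 1 and 2. With the HPV+ line r was 0.693 against 0.525 and 0.546, and with the SCCVII line 0.447 against 0.393 and 0.355. Many members of libraries 1 and 2 lay near or below the added 0.1 TPM, so level also enters these values. Epithelial markers fixed as a list of 8 summed to 135 TPM in library 4 and 59.4 and 42.3 TPM in the others, and fibroblast markers to 32.1 against 5.8 and 4.82, while the macrophage list was alike (18184 against 17692 and 19920.5). Granulocyte markers summed to 23.6 TPM in library 4 against 10.1 and 5.64, and mast cell markers to 3.78 against 0.63 and 0.51. Endothelial markers were lower in library 4, at 11.0 TPM against 19.1 and 15.9. The part of these markers in the result was not tested.

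Between macrophages of different tumours, 9 members passed the low-count filter. Against HPV-, the HPV+ macrophages had 5 lower members (Hoxa7, Hoxa10, Hoxb7, Hoxb9 and Hoxc6) and none higher, where 48.7% of all genes were called (25.9% lower). All 5 were at or below 0.2 TPM in each HPV+ library. Without HPV- library 4, all 5 differences were smaller and the count was again 5, with Hoxc6 lost (log2 -2.14, from -3.49; adjusted p = 0.0851) and Hoxb4 gained (log2 0.61, adjusted p = 0.013). The Hoxc6 call was also lost without HPV+ library 1, 2 or 3 (adjusted p = 0.054, 0.072 and 0.063). SCCVII macrophages had Hoxb3, Hoxb7 and Hoxb9 lower than HPV- (39.2% of all genes called, 20.5% lower). Without HPV- library 4 only Hoxb9 was called, with all 3 differences smaller. The Hoxb3 call was also lost without HPV- library 2 and without SCCVII library 1 or 2. That of Hoxb7 was also lost without SCCVII library 1 or 3. Against HPV+, SCCVII macrophages had Hoxa7, Hoxa10 and Hoxc6 higher and Hoxb3 (log2 -1.80 ± 0.45) and Hoxb4 (log2 -0.96 ± 0.20, adjusted p = 0.0022) lower (63.2% of all genes called, 32.2% higher and 30.9% lower). Without HPV+ library 2, 3 members were called, Hoxa10 and Hoxc6 being lost. The Hoxa10 call was also lost without HPV+ library 1 or 3 and without SCCVII library 1 or 3 (adjusted p = 0.058 to 0.097). The Hoxb4 difference from HPV- was not called for HPV+ (log2 0.41 ± 0.20, adjusted p = 0.11) or SCCVII (log2 -0.55 ± 0.20, adjusted p = 0.052). The macrophage marker list summed to 7207 to 8568 TPM in HPV+ macrophages, 17692 to 19920.5 in HPV- and 19129 to 21450 in SCCVII, and the epithelial list to 168 to 203, 42.3 to 135 and 71.6 to 77.4 TPM. Erythroid and megakaryocyte markers summed to 405 to 659 TPM in HPV+, 1516 to 1668 in HPV- and 124 to 156 in SCCVII macrophages, and endothelial markers to 57.0 to 68.9, 11.0 to 19.1 and 4.91 to 7.25. Haematopoietic progenitor markers summed to 7.29 to 15.6 TPM in HPV+, 3.41 to 4.11 in HPV- and 2.55 to 3.86 in SCCVII macrophages. The part of these shifts in the Hox differences was not tested. The calls rest on low values: Hoxa7, at 0.54, 0.85 and 0.68 TPM, had the highest mean of the members raised in SCCVII against HPV+.

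The colony libraries differed widely in macrophage markers. The macrophage list of 8 genes summed to 17965.5, 1581 and 89.8 TPM in HPV- colonies 1, 2 and 3 and to 15900.5 and 1490 in SCCVII colonies 1 and 2, against 7207 to 21450 in sorted macrophages and 15.8 to 46.3 in the lines. HPV- colony 1 also held granulocyte markers at 1480 TPM, with 8 of 8 genes at 1 TPM or more (9.58 and 7.20 in colonies 2 and 3), and erythroid and megakaryocyte markers at 457 TPM (36.7 and 23.7). In HPV- colony 3, 3 of the 8 macrophage markers reached 1 TPM and 1 was at 0. The Hox sum was lowest in the colonies highest in macrophage markers (246 and 182 TPM) but stayed above every macrophage library. Epithelial markers summed to 500, 622 and 733 TPM in HPV- colonies (462 to 802 in the HPV- line) and to 192 and 277 in SCCVII colonies (1197 to 1352 in the SCCVII line). Fibroblast markers summed to 190 to 540 TPM in HPV- and 1089 and 1046 in SCCVII colonies, against 62.2 to 87.7 and 863 to 938 in their lines. The 8 progenitor markers summed to 24.6 to 42.3 TPM in HPV- colonies (34.9 to 49.5 in the HPV- line) and to 549 and 724 in SCCVII colonies (700.4 to 710.3 in the SCCVII line). Of these, Cd34 stood at 15.8 and 620 mean TPM in HPV- and SCCVII colonies (23.1 and 681 in the lines), Hlf at 10.8 and 0.045, Mecom at 5.20 and 0.005 and Gata2 at 1.02 and 16.4. The other 4 were at or below 0.59 mean TPM, among them Kit (0.13 and 0.005) and Flt3 (0.05 and 0.16). The part of these cell types in the Hox levels was not tested.

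**Figure D4:**
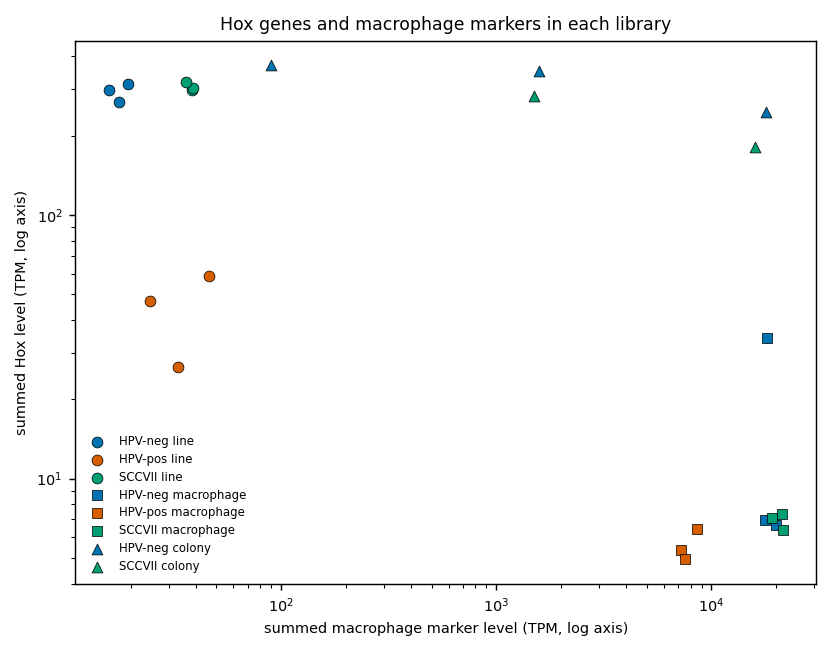
Summed level of the 38 Hox genes (vertical, log axis) against the summed level of 8 macrophage markers (horizontal, log axis), both in TPM, in each library (shape by kind of sample, colour by tumour model). Colonies (triangles) range from 89.8 to 17965.5 TPM of macrophage markers at 182 to 370 TPM of Hox mRNA, while sorted macrophages (squares) stay at or below 34.1 TPM of Hox mRNA.

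Colonies grown from sorted macrophages carried a Hox profile close to that of the tumour line of the same model. Over the 38 members, the mean profile of the HPV- colonies correlated with the HPV- line at a Pearson r of 0.948 (Spearman rho 0.954) and with the SCCVII line at 0.495. The SCCVII colonies correlated with the SCCVII line at 0.977 (rho 0.967) and with the HPV- line at 0.451, while the 2 lines correlated with each other at 0.507. Each colony library was closest to its own line (0.938 to 0.947 for HPV-, 0.969 and 0.970 for SCCVII). Points are genes, not replicates, and genes at 0 in both groups add to each value. As a share of the line's level the members' median was 122%, 143% and 158% in HPV- colonies and 51.9% and 92.0% in SCCVII colonies, and every member at 2 TPM or more in the line kept at least 14.9% of its level in each colony library.

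**Figure D5:**
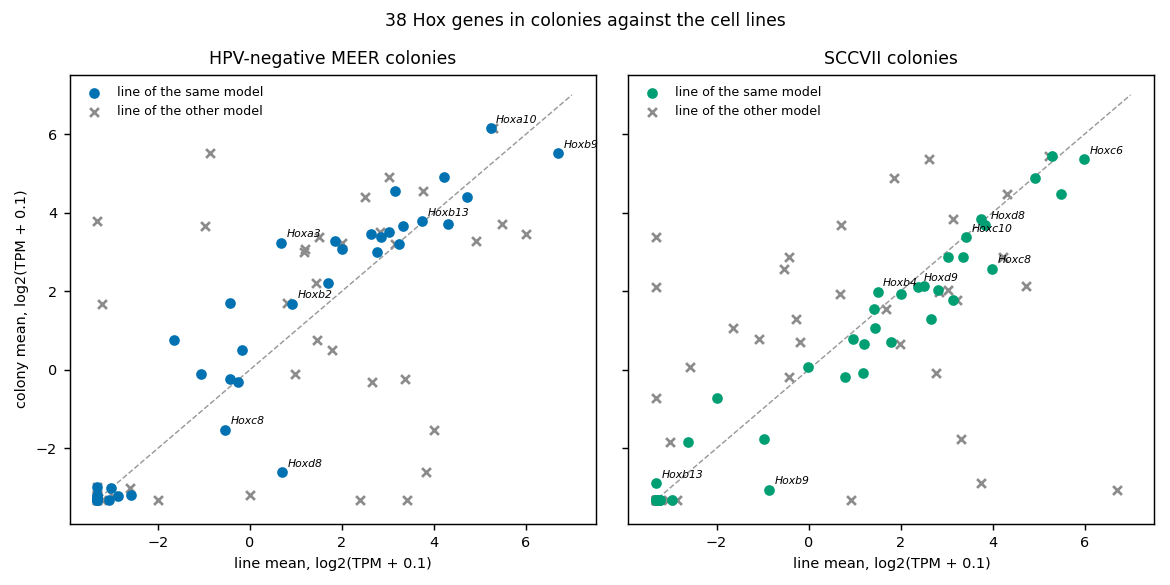
Mean level of the 38 Hox genes in colonies (vertical axis) against cell lines (horizontal axis), both log2(TPM + 0.1), for HPV- MEER (left) and SCCVII (right). Filled points use the line of the same model (Pearson r 0.948 and 0.977), and grey crosses the line of the other model (0.495 and 0.451). The dashed line marks equality, which r does not measure. Some filled points lie off it, such as Hoxd8 (0.06 mean TPM in HPV- colonies, 1.52 in the line) and Hoxa3 (9.29 and 1.51).

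Hoxb genes on one side and Hoxc and Hoxd genes on the other separated the colonies as well. Hoxb9 stood at 31.3, 38.6 and 66.5 TPM in HPV- colonies and 0.02 in both SCCVII colonies. Hoxb13 stood at 13.8, 10.2 and 17.1 TPM against 0.07 and 0, and Hoxb8 at 10.2, 11.5 and 15.9 against 0.23 and 0.16. Hoxb2 was at 2.93, 2.87 and 3.5 TPM in HPV- and at 0 counts in SCCVII colonies, at least 94.1-fold lower. In the other direction, Hoxc10 gave 12.5 and 8.17 TPM in SCCVII colonies and 0 counts in HPV- colonies (at least 521-fold higher), and Hoxd9 2.72 and 5.73 TPM against 0 (at least 254-fold higher). Hoxc8 (4.46 and 7.21 TPM against 0.11, 0.06 and 0.57; log2 5.11 ± 0.75, adjusted p = 0.0010) and Hoxd8 (6.58 and 19.1 against 0.07, 0.12 and 0; log2 7.93 ± 1.00, adjusted p = 0.00050) moved the same way. No library of one model reached the other for any of these. Of 29 members tested, 8 were higher and 6 lower in SCCVII colonies, where 40.4% of all genes tested were called (20.5% higher, 19.9% lower).

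All 14 members called in colonies, of 29 tested in both, were also called between the lines, in the same direction. The line and colony comparisons share no library. Among all 13971 genes tested in both, 3857 were called in both, and 3275 of these (84.9%) had the same direction. Between the lines, 58.8% of all genes tested were called. Without HPV- colony 1, and without HPV- colony 3, the same 14 members were called. Leaving out an SCCVII colony leaves 1 library in that group, which is then assumed to vary like the other groups. Without SCCVII colony 1, Hoxb4 (log2 -0.62, from -0.89 with both) and Hoxb8 (-7.45, from -6.48) were no longer called. Without SCCVII colony 2, this held for Hoxb8 (-5.84), Hoxb13 (-6.87, from -7.95) and Hoxc6 (2.21, from 2.43). Hoxa10 was high in both sets of colonies, at 45.8, 91.0 and 75.2 TPM in HPV- and 37.9 and 48.9 in SCCVII.

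Against the sorted macrophages of the same model, colonies had 24 of 29 members tested higher and none lower in HPV- MEER (62.7% of all genes called, 34% higher) and likewise 24 and none in SCCVII (51.9% called, 29.7% higher). The labels do not tie a colony to a sequenced macrophage pool. The same 24 HPV- members were called without HPV- macrophage library 4, without HPV- colony 1 and without HPV- colony 3. Hoxa10 (log2 5.30 ± 0.88 in HPV-, 6.87 ± 0.99 in SCCVII), Hoxa11 (5.31 ± 0.75 and 6.71 ± 0.85) and Hoxc6 (4.28 ± 0.63 and 6.62 ± 0.71) were raised in both. The HPV- values depend on macrophage library 4: without it the rises were 7.47 for Hoxa10, 6.78 for Hoxa11 and 5.68 for Hoxc6, and all 24 were larger. The rise of Hoxb4 was 1.61 ± 0.23 in HPV- (1.87 without library 4) and 1.26 ± 0.25 in SCCVII. The change differed between the models for Hoxc8 and Hoxd8, the members called in the test of the difference itself, where 24.1% of all genes tested were called (13.5% higher). Hoxc8 rose 4.60 ± 1.12 further on the log2 scale in SCCVII (adjusted p = 0.019) and Hoxd8 6.79 ± 1.34 (adjusted p = 0.0077). In SCCVII both rose from macrophage to colony (5.98 ± 0.80 and 6.18 ± 0.91), and in HPV- neither was called (1.39 ± 0.77 and -0.61 ± 0.99). Without HPV- macrophage library 1, the call of Hoxc8 was lost (log2 4.31, adjusted p = 0.058), and without library 4 the members called were 4, with Hoxc8 (log2 4.56) and Hoxd8 (6.75) among them.

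Some members did depart from the line. In HPV- colonies 8 of 30 members tested were higher than in the line and 4 lower (53.2% of all genes called, 28.1% higher and 25.2% lower). Without HPV- colony 1 the same 12 were called. Without HPV- colony 3 the count was 13, with Hoxa10 (log2 0.69, from 0.71; adjusted p = 0.055) and Hoxc6 (log2 0.47, from 0.66; adjusted p = 0.14) no longer called. The rises were mostly in Hoxa: Hoxa3 (6.86, 13.2 and 7.83 TPM against 0.98, 1.03 and 2.51; log2 2.78 ± 0.37, adjusted p = 0.00030), Hoxa4 (1.85, 1.25 and 1.68 against 0.21, 0.24 and 0.21; log2 2.66 ± 0.36) and Hoxa2 (log2 2.10 ± 0.44). Hoxd8 fell most (0.07, 0.12 and 0 TPM against 2.42, 1.40 and 0.75, log2 -4.28 ± 0.68). The other falls were Hoxd10, Hoxb9 (log2 -1.37 ± 0.23) and Hoxa7 (log2 -0.85 ± 0.23). Hoxd10 rested on few counts, 10 over the line and 2 over the colonies. Its call was lost without HPV- line aliquot 3 (adjusted p = 0.087). The Hoxc6 call was also lost without HPV- line aliquot 1 or 2, and that of Hoxa10 without aliquot 1. Exons of Hoxa3, and likewise of Hoxa7, Hoxa11, Hoxb2, Hoxb3, Hoxb5 and Hoxd3, overlap antisense transcripts, and those of Hoxa9 overlap Mir196b on the same strand, so their levels are uncertain on that count. In SCCVII colonies 4 of 30 were called, where 46.9% of all genes were called (27.1% higher, 19.7% lower): Hoxb4 higher (log2 0.82 ± 0.25) and Hoxa6, Hoxb9 and Hoxc5 lower. Leaving out SCCVII colony 2 gave 7 calls, and leaving out SCCVII colony 1 or SCCVII line 3 gave 2.

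Hox proteins act with TALE cofactors of the Meis, Pbx and Pknox families, and their clusters are kept open by Trithorax and MLL proteins and shut by Polycomb proteins. Meis1 stood at 7.22, 13.5 and 9.33 mean TPM in the HPV-, HPV+ and SCCVII lines, at 0.77, 0.71 and 0.30 in their macrophages and at 7.32 and 5.60 in HPV- and SCCVII colonies. Of 9 cofactors tested, 5 were higher and 3 lower in the HPV- line than in its macrophages, where 76.1% of all genes tested were called (37.4% higher, 38.7% lower), led by Pknox2 (log2 8.34 ± 0.86) and Meis2 (4.92 ± 0.58) on one side and by Pbx2 (log2 -2.06) and Meis3 (-0.64) on the other. Macrophages thus held more Pbx2 mRNA, at 56.2 mean TPM against 17.5.

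Kmt2a, the MLL protein that keeps Hox genes active, stood at 12.5, 17.3 and 15.1 mean TPM in the lines and 7.04, 7.14 and 6.58 in their macrophages (log2 0.48, 0.50 and 0.88, all called). Over the 14 activators, 10 were higher and 3 lower in the HPV- line than in its macrophages (37.4% of all genes higher, 38.7% lower), with Mllt3 (log2 3.07) and Psip1 (2.29) raised most and Kdm6b (-1.23) and Dpy30 (-0.99) lowered most. Over the 23 Polycomb genes, 15 were higher and 6 lower, with Cbx6 (3.12) and Cbx2 (2.15) at one end and Jarid2 (-4.06) and Cbx7 (-1.83) at the other. Their medians were 0.47 and 0.46 against -0.01 for all genes tested. In SCCVII against HPV- lines, 9 Polycomb genes were higher and 5 lower, and 3 activators were higher and 4 lower, together 60.9% of the Polycomb genes and 50% of the activators beside 58.8% of all genes. The HPV+ line had 8 Polycomb genes higher than the HPV- line and 1 lower, or 39.1% called beside 47% of all genes, with Ezh2 (log2 1.56) and Phc1 (1.38) raised most and Bmi1 (-0.33) lowered.

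Other genes of position were also measured. Of 22 head and pharyngeal factors, 14 were tested between the SCCVII and HPV- lines and 10 were lower and 2 higher in SCCVII (31.6% and 27.2% of all genes tested), with a median log2 difference of -2.24 against -0.06 for all genes tested. Pitx1 stood at 66.9 and 111 mean TPM in the HPV- and HPV+ lines and 0.01 in SCCVII. Dlx3 (log2 7.22) and Dlx4 (3.81) were higher in SCCVII. HPV- colonies held Pitx1 at 58.7 mean TPM and SCCVII colonies at 0.09. Macrophages of HPV-, HPV+ and SCCVII tumours gave Pitx1 at 3.91, 2.24 and 0 mean TPM. Among 7 trunk and limb factors tested, 3 were higher and 3 lower in the SCCVII line, beside 58.8% of all genes called, and their median log2 difference of -0.06 was that of all genes: Prrx2 (log2 2.24) and Tbx3 (1.49) led the rises, and Tbx18 (10.3 against 0 mean TPM) and Shox2 (log2 -2.18) the falls. Tbx18 stood at 16.2 and 0.02 mean TPM in HPV- and SCCVII colonies. Of the ParaHox and neighbouring genes, 1 of 9 passed the filter: Cdx2, at 5.57 mean TPM in the HPV+ line, 0.24 in HPV- and 0 in SCCVII.

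Non-coding genes within the clusters were tested as well. Of 23 such genes, 9 were tested between the SCCVII and HPV- lines, 2 were higher and 3 lower, a share of 55.6% beside 58.8% of all genes. Gm53, in the Hoxb cluster, stood at 41.2 mean TPM in the HPV- line, 0.49 in HPV+, 0.01 in SCCVII, 54.0 in HPV- colonies and 0 in SCCVII colonies. Hoxb5os fell between the same lines (log2 -4.41), from 26.6 to 1.09 mean TPM, and Hoxd3os1 (1.78) and Hoxa11os (0.89) rose. Hotairm1 was present in macrophages (8.44, 8.56 and 5.76 mean TPM) beside 8.24, 17.3 and 5.47 in the lines, and stood at 25.5 and 30.4 in HPV- and SCCVII colonies, called higher than in their lines (log2 1.5 and 2.25) and macrophages (1.34 and 2.29). Antisense genes among these share exon sequence with members, so without a stated strand setting their levels and those of the members cannot be told apart.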

How the data were processed

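Per the labels' protocols, all 23 libraries used TruSeq Stranded mRNA chemistry. The authors deposited expected counts and TPM per gene, in a table of 20 libraries and a separate one of the 3 HPV- colony libraries. The submitters' processing notes name FastQC, STAR 2.5.3a, RSEM 1.3.0, MultiQC and the build mm10 (GRCm38). The strand setting is not given in the sources used here. TPM values were used as the authors deposited them, for levels. Expected counts, as deposited by the authors, were rounded (13.1% of values were not whole, to a tolerance of 0.001) and tested with edgeR 4.0.16 in R 4.3.3. Its quasi-likelihood test used TMM scaling, a filter of 10 counts per library scaled to the smallest group (15 in all), and Benjamini-Hochberg adjustment over all genes tested at 0.05. All adjusted p-values in the text are from that test unless another tool is named. Separate fits held the lines, the macrophages, lines with macrophages, colonies with macrophages, and colonies with lines, with 14085 to 16238 genes tested. The biological coefficient of variation was 16.0% to 18.1% without colonies and 37.2% to 40.2% with them. The code was tested on simulated data.

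Of the gene identifiers, 35243 (95.8%) matched a symbol in GENCODE M21, which also gave coordinates. Depth was 26848759 to 47609481 expected counts per library. A fold against a group at 0 counts is a bound against 3 counts over the group, and intervals beside 1 to 3 counts are exact Poisson 95% intervals, which cover counting error only. Placing members at such a bound did not move any median log2 difference given. Members given by value had a group mean of at least 1 CPM in any group. Of other lists, up to 2 called genes with the largest rise and the largest fall per comparison are named, with Meis1 and Kmt2a. Some genes that enter the counts, sums and correlations are not reported here by name. The lists were TALE cofactors, Trithorax and MLL activators, Polycomb repressors, ParaHox genes, head and pharyngeal factors, trunk and limb factors, non-coding Hox cluster genes, and cell markers of 8 genes each. Mast cell markers summed to at most 4.98 TPM and endothelial markers to at most 68.9 in any library. The members, lists and tests were chosen with earlier results of these data known. DESeq2 1.42.0 was an alternative. Figures used matplotlib 3.10.9.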

Additional observations from a re-analysis of the deposited data

Results flagged for a closer look

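For Hoxc8 and Hoxd8 the difference between colonies and macrophages was itself different between the models, by the test of that difference. The log2 change was larger in SCCVII than in HPV- MEER by 4.60 for Hoxc8 (adjusted p = 0.019) and by 6.79 for Hoxd8 (adjusted p = 0.0077). Both genes were present in every SCCVII colony library (Hoxc8 at 4.46 and 7.21 TPM, Hoxd8 at 6.58 and 19.1) and at or below 0.57 TPM in every HPV- colony library. No group holds more than 3 libraries, so single libraries were not screened as outliers.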

How the results depend on the processing

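Counts of called members moved by over 1.5 times in 6 comparisons. For HPV+ against HPV- macrophages (5 called), no filter on low counts gave 9, a stricter filter 0 because the called members were no longer tested, and one fit of all 23 libraries 14. For SCCVII against HPV- macrophages (3), these gave 9 without a filter and 10 with all libraries, the replicate block gave 1, and leaving out 1 library 1 to 3, with 1 without HPV- library 4. For SCCVII against HPV+ macrophages (5), the stricter filter gave 2, all libraries 9 and leaving out 1 library 3 to 5. For the difference between models in colony against macrophage (2), DESeq2 gave 6, all libraries 4, the replicate block 1 and leaving out 1 library 1 to 4. For colony against line, HPV- (12) gave 7 with all libraries and 9 to 13 without 1 library, and SCCVII (4) gave 2 with all libraries and 2 to 7 without 1 library. The cause was not tested. In the other comparisons every count stayed within 1.5 times. Of 2848 values of members under all alternatives, 2745 kept direction and call, 97 lost the call, 6 gained it and none reversed. Members no longer tested under an alternative are not among these values. Calls lost that way, such as those of HPV+ against HPV- macrophages under the stricter filter, are thus not in the 97. The main fits did not pair samples by replicate number. No comparison of 3 pairs had every correlation over 0.1, and 2 pairs of SCCVII and HPV- colonies gave 0.25 and 0.41. So few pairs cannot show whether libraries of the same number were prepared together. In macrophages 9 of 38 members passed the low-count filter, at 26848759 or more expected counts per library, and the part of depth in their calls was not tested.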
